A study of Mus musculus with 55 samples.

Results

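Impact, Zdbf2, Zrsr1, Commd1, Nap1l5, Inpp5f and Calcrl are mouse genes that lie apart from the large imprinted clusters, and they were taken by name from the gene tables of the study. All 7 were found among the 51734 genes counted in oocytes and among the 24421 genes of the allelic tables for embryos. The rule that names them uses no measured value. The study asked how DNA methylation in oocytes and sperm changes when DNMT3A and DNMT3L lose the function of the ADD domain. This domain reads the histone H3 tail. Gene expression, the measure used here, was then followed for the effect of reduced methylation. DNMT3A methylates DNA in the growing oocyte, and DNMT3L is its cofactor without catalytic activity. RNA-seq libraries were made from single fully grown oocytes (FGOs), from single oocytes at the second meiotic metaphase (MII) and from embryos that grew from double mutant oocytes.

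At an imprinted gene, DNA methylation placed on 1 parental chromosome in the germ line decides which parental copy is read in the offspring. The copy inherited from the oocyte carries the mark at most such loci, and the methylation is laid down late in oocyte growth by DNMT3A with its partner DNMT3L. Impact, Zdbf2, Zrsr1 and Nap1l5 are known in the mouse as genes read mainly from the paternal copy, while at Inpp5f a short transcript, not the whole gene, is known for this behaviour. Both chromosome sets of an oocyte come from the same animal, so oocyte counts carry a level and no parental share, and only the embryo tables separate the alleles.

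Wild-type oocytes were taken as 18 FGOs and as 10 MII oocytes. The mutant FGOs were 8 with the mutated Dnmt3a on both alleles (Dnmt3a ADD/ADD, labelled Dnmt3aADA/ADA), 8 with the mutated Dnmt3L on both alleles (Dnmt3L ADD/ADD) and 8 homozygous for both mutations (double mutant). FGOs came from females of 10 to 12 weeks, on a background mostly of C57BL/6J, and cumulus cells had been washed off by capillary. The 3 embryos were labelled as embryonic day 9. Their mothers carried both mutations (labelled Dnmt3aADA/ADA and Dnmt3LD124A/D124A), the sperm was wild-type from the JF1 strain, and the 2-cell embryos were carried by ICR females. The labels do not say which oocytes or embryos shared a mother, so p-values measure the spread between these libraries. Both are point mutations that leave the transcripts in place, so the levels of Dnmt3a and Dnmt3l do not check the labels, and their group medians stayed between 288 and 317 and between 122 and 139 CPM (the count of a gene scaled by the total count of its library).

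The oocyte libraries held from 7832458 to 23739871 counts. They fell into a lower and a higher class by the share of reads that the study could map. The wild-type FGOs were split (8 lower, 10 higher), as were the Dnmt3a ADD/ADD FGOs (3 and 5) and the MII oocytes (3 and 7), whereas all 8 Dnmt3L ADD/ADD FGOs were of the higher class and all 8 double mutant FGOs of the lower class. Oocyte markers such as the zona pellucida genes were found in every group (10 of 10 genes), but their summed level differed. It was 9635 to 11970 CPM in double mutant FGOs, wholly above the Dnmt3a ADD/ADD FGOs (6400 to 7889 CPM), those with Dnmt3L ADD/ADD (6562 to 8826 CPM) and the MII oocytes (6551 to 7198 CPM), and 6715 to 11710 CPM in wild-type FGOs. Among embryos, embryo 2 stood apart, with 60.5% of its 8547786 allelic counts on the maternal allele, against 52.7% of 7534598 in embryo 1 and 51.7% of 6998944 in embryo 3.

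The start of a gene is where the imprint acts at several of these loci, so the window of 250 bases before to 50 after the RefSeq start was read for each member that RefSeq's promoter table (GRCm38.p6) holds, 6 of the 7. The letters CG, the dinucleotide that is methylated, occurred 17 times at Nap1l5, 10 times at Zrsr1, 15 times at Inpp5f and 7 times at Calcrl. Commd1 had a pair of windows with 18 and 17, and Zdbf2 a pair with 15 and 38. The median over 32851 promoters of the same length was 7, and 31.4% of them held 17 or more, 43.5% held 10 or more and 4.95% held 38 or more. The motif TGCCGC, searched on both strands, is the one that the imprint-keeping factor ZFP57 binds when methylated. It overlaps CG and was found 2 times at Nap1l5, 3 times in the first window of Zdbf2, 1 time in the first window of Commd1 and not in the other windows, while 11.6% of all promoters held it. The windows of the retrogenes Nap1l5 and Zrsr1, and the second window of Zdbf2, which holds the gene start in the study's annotation, are shown because they hold 17, 10 and 38 CG (CG in capitals, 5′ to 3′ on the strand of the gene). They lie at chr6:58907077-58907376 (minus strand), chr11:22971755-22972054 (plus strand) and chr1:63273019-63273318 (plus strand). The first window of Zdbf2, which alone of the pair holds TGCCGC, lies at chr1:63200108-63200407 (plus strand), inside the span of the gene Gpr1. Which window of the pair carries an imprint was not tested. The RefSeq start of Zrsr1 lies ahead of its start in the study's annotation.
Nap1l5: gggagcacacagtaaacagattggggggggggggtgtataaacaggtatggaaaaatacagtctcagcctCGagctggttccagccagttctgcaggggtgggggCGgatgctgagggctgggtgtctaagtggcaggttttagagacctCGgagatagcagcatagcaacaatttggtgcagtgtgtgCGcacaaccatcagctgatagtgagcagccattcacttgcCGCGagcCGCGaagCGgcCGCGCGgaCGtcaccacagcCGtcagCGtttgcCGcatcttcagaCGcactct
Zrsr1: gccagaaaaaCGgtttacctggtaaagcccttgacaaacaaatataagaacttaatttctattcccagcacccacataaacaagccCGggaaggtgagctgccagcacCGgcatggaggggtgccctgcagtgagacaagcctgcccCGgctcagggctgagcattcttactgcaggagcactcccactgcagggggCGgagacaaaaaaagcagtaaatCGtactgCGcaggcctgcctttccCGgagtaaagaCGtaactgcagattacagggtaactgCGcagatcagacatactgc
Zdbf2: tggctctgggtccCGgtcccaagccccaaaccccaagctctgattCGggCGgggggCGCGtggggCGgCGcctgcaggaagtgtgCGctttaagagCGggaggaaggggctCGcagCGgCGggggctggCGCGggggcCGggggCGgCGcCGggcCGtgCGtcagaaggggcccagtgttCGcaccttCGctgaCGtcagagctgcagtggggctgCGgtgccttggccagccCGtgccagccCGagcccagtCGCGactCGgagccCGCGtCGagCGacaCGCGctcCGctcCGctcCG

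Levels per length differed widely between the members. In wild-type FGOs the median level per exon length and library size (RPKM) was 8.56 for Inpp5f, 5.59 for Commd1, 1.86 for Impact, 1.43 for Nap1l5, 0.356 for Zrsr1, 0.277 for Zdbf2 and 0.035 for Calcrl. Inpp5f stood above Commd1 in 18 of 18 wild-type FGOs. Lower in that order the neighbours overlapped. Commd1 was above Impact in 15 of 18, Impact above Nap1l5 in 14 of 18, Nap1l5 above Zrsr1 in 17 of 18, Zrsr1 above Zdbf2 in 12 of 18 and Zdbf2 above Calcrl in 17 of 18. In double mutant FGOs Nap1l5 was above Zrsr1 in 1 of 8 libraries, and in MII oocytes in 1 of 10.

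**Figure D1:**
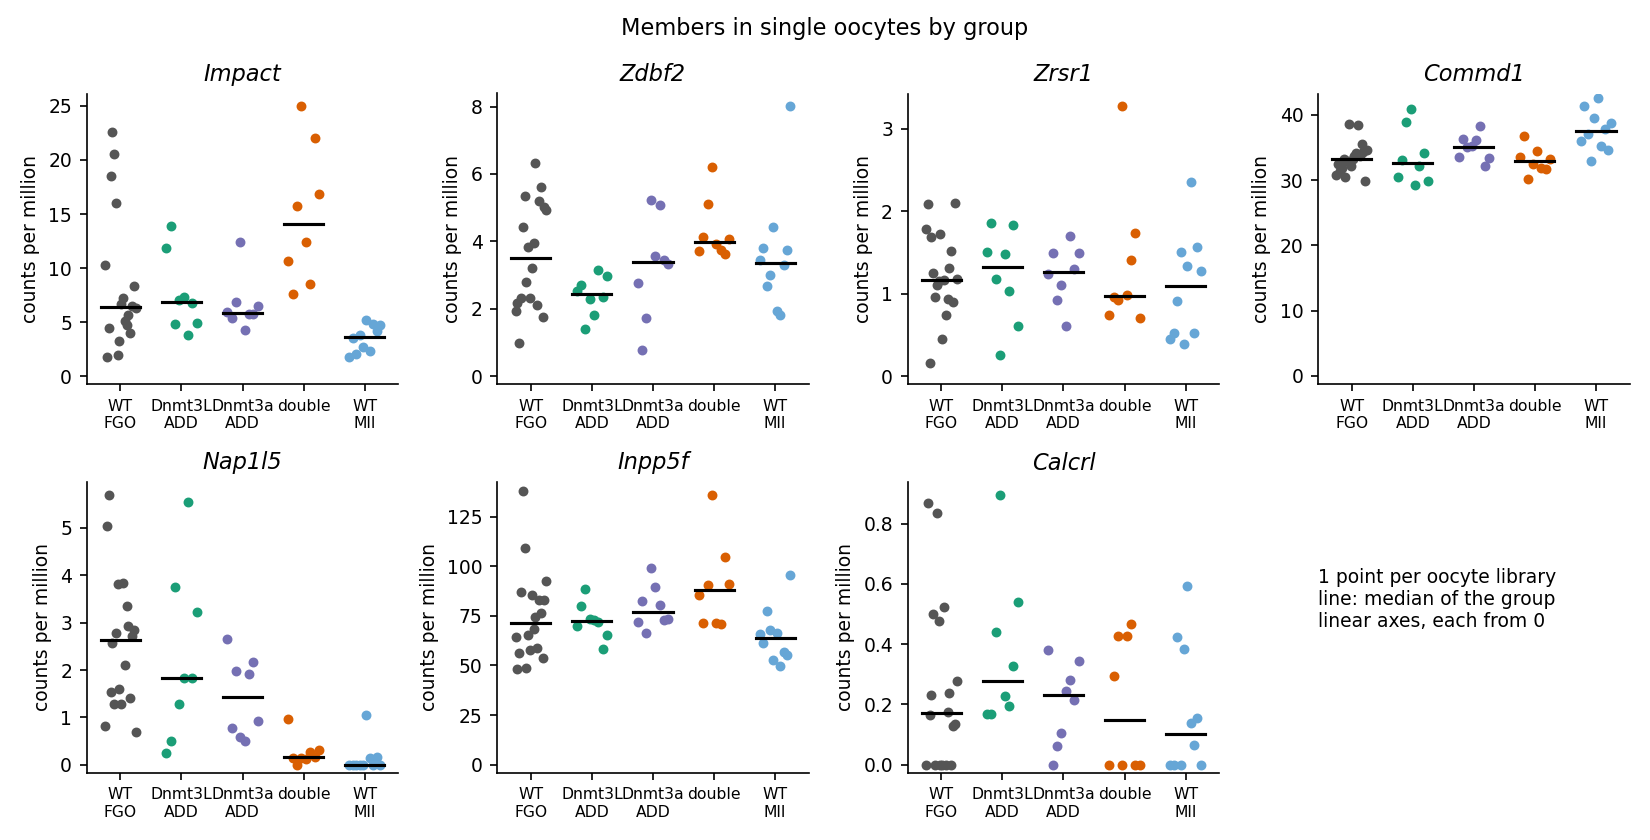
CPM of each of the 7 members (vertical axes, linear) in every oocyte library, by group (horizontal axes); each point is 1 oocyte and each line a group median. Nap1l5 lay at or below 0.966 CPM in all double mutant FGOs and Impact at or above 7.58 CPM, while the groups of Zrsr1 and Commd1 lay over one another.

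Nap1l5 fell in double mutant FGOs, and it was the only member past the threshold in that comparison. Nap1l5 encodes a relative of the histone chaperone NAP1. It is a retrogene of 1 exon (1844 bases, chromosome 6, 58905233 to 58907076, minus strand, mm10) that lies inside the span of Herc3, on the opposite strand, and shares 0 exonic bases with it. In CPM the 18 wild-type FGOs ran from 0.693 over a median of 2.64 to 5.69. Double mutant FGOs ran from 0 over 0.156 to 0.966. Dnmt3a ADD/ADD FGOs ran from 0.491 over 1.42 to 2.66, and those with Dnmt3L ADD/ADD from 0.252 over 1.83 to 5.54. The counts behind the double mutant values were 13, 2, 0, 2, 2, 4, 2 and 4, against 10 to 69 in wild-type FGOs. All but 1 of the 8 double mutant libraries lay below every wild-type library. The share of all genes that part as far was not counted, here or for the like counts of libraries for Impact, Commd1 and Inpp5f below. Both single mutant groups overlapped the wild-type FGOs.

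In edgeR's quasi-likelihood test over 15726 genes (called at an adjusted p under 0.05 and a fold change over 2), the log2 change of Nap1l5 was -3.26 (SE 0.52, adjusted p = 6.64e-05) in double mutant against wild-type FGOs. With 1 of 6 members called there, the share over all genes tested was 1.65%. Nap1l5 passed as well when any mutant library was left out (log2 change from -3.93 to -3.08) and in 7 other fits (adjusted p from 2.57e-09 to 0.00351, edgeR or DESeq2). Among them was the fit with wild-type FGOs of the lower class alone, the class of the double mutants, where Nap1l5 ran from 0.818 over 2.67 to 5.69 CPM. Against Dnmt3a ADD/ADD FGOs the log2 change was -2.44 (SE 0.57, adjusted p = 0.00146 from edgeR), and against Dnmt3L ADD/ADD FGOs it was -3.13 (SE 0.56, adjusted p = 0.000299 from edgeR). In the single mutants Nap1l5 did not pass against wild-type FGOs. The log2 change was -0.82 (SE 0.42, adjusted p = 0.174 from edgeR) for Dnmt3a ADD/ADD, and it was -0.13 (SE 0.40, adjusted p = 0.873 from edgeR) with Dnmt3L ADD/ADD.

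Nap1l5 was also low in MII oocytes. It was at 0 counts in 7 of 10 libraries, had 2 counts in another 2 and 14 (1.04 CPM) in replicate 6. The log2 change from wild-type FGOs was -4.09 (SE 0.58, adjusted p = 1.66e-07 from edgeR). Low counts came mostly in even steps: among counts of 1 to 4 in the oocyte tables, 46.3% were 2 and 24% were 1, so that a count of 2 may stand for 1 fragment.

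Transcripts of granulosa cells, the somatic cells that surround the oocyte, were lower in the same groups as Nap1l5. Of 16 granulosa genes (all measured), the summed level had a median of 304 CPM in wild-type FGOs (259 to 483), 226 in double mutant FGOs (204 to 239.9) and 242 in MII oocytes (218 to 283). Between them were the Dnmt3a ADD/ADD FGOs with 239 (215 to 315) and the Dnmt3L ADD/ADD FGOs with 269 (202 to 283). Amh and Inhbb, which define the cell type, were at 0 in every MII library, and no gene of the list was at 0 throughout a group of FGOs. Serpine2, Cyp19a1 and Kitl kept high levels in MII oocytes. The other 13 genes were chosen after their values were seen, for a low median level in MII oocytes. Their low sum in MII oocytes therefore follows from the choice. The median sum over these 13 genes was 73.0 CPM in wild-type FGOs (46.1 to 247), 11.1 in double mutant FGOs (8.36 to 15.3) and 3.02 in MII oocytes (2.42 to 25.6). It was 31.3 CPM for Dnmt3a ADD/ADD (13.6 to 90.5) and 42.5 CPM for Dnmt3L ADD/ADD (21.2 to 75.7). The MII library with 14 counts of Nap1l5 was also the one with 25.6 CPM of these genes. With the sum of all 16 genes, Spearman's rho of Nap1l5 was 0.85 within the 18 wild-type FGOs, 0.10 within the double mutant, 0.29 within the Dnmt3a ADD/ADD and 0.33 within the Dnmt3L ADD/ADD FGOs (n = 8 each). With the 13 genes rho within the wild-type FGOs was 0.62, and Pearson's r was 0.41 and, without the 2 oocytes farthest from the median sum, 0.45. Both quantities share a library and its depth. Within the double mutant FGOs it was -0.71 (n = 8), so that its sign there depended on the choice of genes, and it was 0.02 among Dnmt3a ADD/ADD FGOs and 0.21 among those with Dnmt3L ADD/ADD (n = 8 each). Stromal and smooth muscle genes (9 of 9 measured) summed to a median of 7.95 CPM in wild-type FGOs (4.28 to 29.7) and of 1.52 CPM in double mutant FGOs (0.98 to 3.09), with Lum and Acta2 at 0 in every double mutant library. The part of somatic RNA in the fall of Nap1l5 was not tested.

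**Figure D2:**
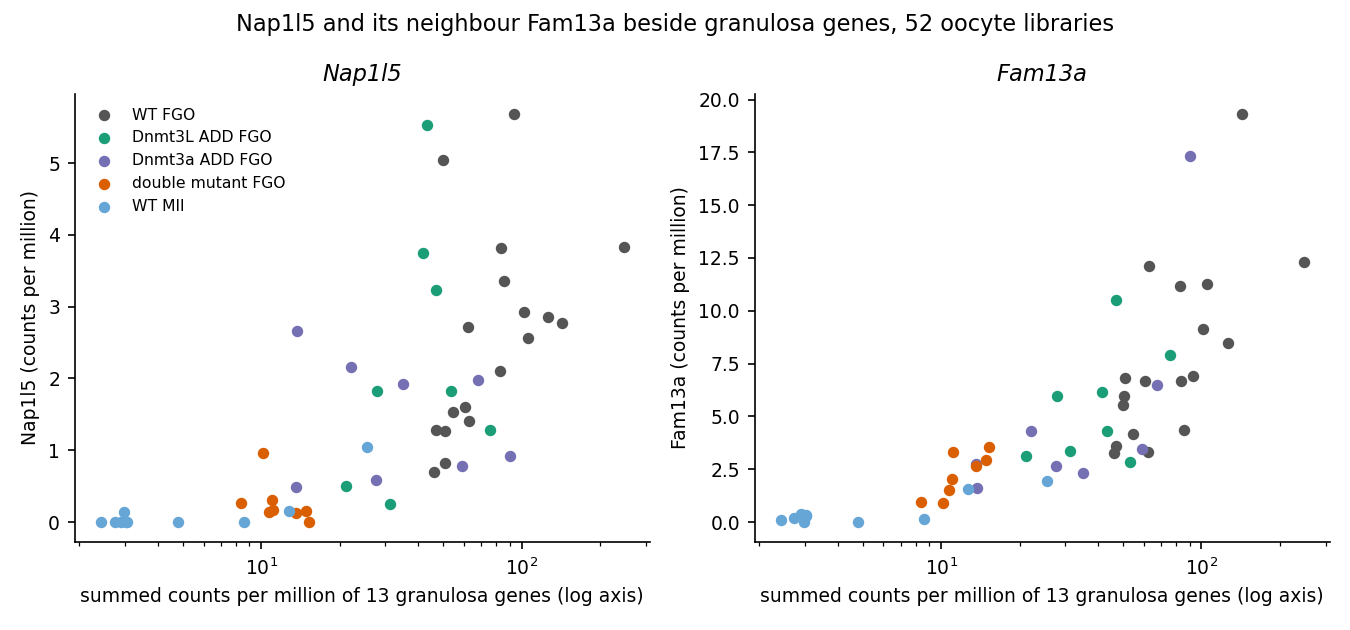
CPM of Nap1l5 (left) and of its neighbour Fam13a (right), on linear vertical axes, against the summed CPM of 13 granulosa genes on a log axis, with 1 point per oocyte library and colours for the 5 groups. Double mutant FGOs (8.36 to 15.3 CPM of granulosa genes) and most MII oocytes gather at the lower left, below all wild-type FGOs (46.1 CPM and above). The 13 genes were chosen for low levels in MII oocytes, so the place of the MII oocytes on the horizontal axis follows from the choice.

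The genes around Nap1l5 moved in different directions. Herc3, the ubiquitin ligase gene that hosts Nap1l5, had a median of 65.1 CPM in wild-type and 92.9 CPM in double mutant FGOs, and its log2 change was 0.36 (SE 0.07, adjusted p = 0.00168 from edgeR), past the adjusted p alone and not past the fold change. Fam13a, the next expressed gene on the side towards higher coordinates, 25.0 kb away and on the same strand as Nap1l5, fell by 1.84 on the log2 scale (SE 0.37, adjusted p = 0.00121 from edgeR) and by 3.90 in MII oocytes (SE 0.46, adjusted p = 1.01e-09 from edgeR). Its level had a Spearman's rho of 0.77 with the 13 granulosa genes over the 18 wild-type FGOs. Lancl2, the nearest expressed gene on the other side at 1166 kb, was not called in any comparison of oocytes.

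Impact was higher in double mutant than in Dnmt3a ADD/ADD FGOs, and against wild-type FGOs the size depended on which of these were used. Impact (chromosome 18, 12972252 to 12992948, plus strand) is a translational regulator that competes with the kinase GCN2 for its activator GCN1. In CPM it ran from 1.74 over a median of 6.39 to 22.6 in wild-type FGOs and from 7.58 over 14.1 to 25.0 in double mutant FGOs. It ran from 4.23 over 5.87 to 12.4 with Dnmt3a ADD/ADD and from 3.80 over 6.88 to 13.9 with Dnmt3L ADD/ADD. All 8 double mutant FGOs were above the median of the wild-type FGOs, and 1 was above every wild-type FGO. They overlapped both single mutant groups, and all 8 lay above the median of each. Wild-type FGOs of the lower class were the most scattered, from 1.74 to 22.6 CPM (mean 12.0 ± 8.55, SD, n = 8), and those of the higher class were close together, from 3.27 to 8.35 CPM (mean 5.78 ± 1.54, SD, n = 10). The summed oocyte markers ran beside Impact in several of these libraries. Wild-type replicates 4, 5 and 6 were highest in both (18.6, 22.6 and 20.6 CPM of Impact with 11350, 10840 and 11710 CPM of the markers), as were double mutant replicates 4 and 7 in their group (25.0 and 22.1 with 11970 and 11230). Wild-type replicate 8 was low in both, with 1.91 and 6715 CPM. Other libraries did not follow this. Wild-type replicate 2 had the lowest Impact (1.74 CPM) with 8890 CPM of the markers. Dnmt3L ADD/ADD replicate 2 had the highest Impact of its group (13.9 CPM) with 7347 CPM of the markers. Dnmt3a ADD/ADD replicate 7 had the highest markers of its group (7889 CPM) with 5.73 CPM of Impact. The part of the spread that Impact shares with the oocyte markers in the difference of Impact was not tested.

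Against all wild-type FGOs the log2 change of Impact in double mutants was 0.79 (SE 0.30, adjusted p = 0.073 from edgeR) and was not called. Against those of the lower class, to which all double mutants belong, it was 0.34 (SE 0.37, adjusted p = 0.801 from edgeR), and against those of the higher class 1.31 (SE 0.23, adjusted p = 2.29e-05 from edgeR). The adjusted p over the 7 other fits ran from 2.29e-05 to 0.801. Double mutant and Dnmt3L ADD/ADD FGOs differ wholly in class, and between them Impact differed by 0.92 (SE 0.37, adjusted p = 0.0623 from edgeR). With the class as a covariate, estimated from the other groups, this was 0.27 (adjusted p = 0.801, over the alternatives from 0.00326 to 0.801, edgeR). Without Dnmt3L ADD/ADD replicate 1 or 2 or double mutant replicate 2 or 6 that difference passed (adjusted p from 0.0331 to 0.141 over the fits that left out 1 library, edgeR). Against Dnmt3a ADD/ADD FGOs Impact was called, at 1.10 (SE 0.37, adjusted p = 0.0213 from edgeR). In the lower class alone, the 3 Dnmt3a ADD/ADD FGOs held 5.41 to 6.48 CPM and the 8 double mutant FGOs 7.58 to 25.0 CPM. For groups this small, the share of all genes without overlap was not counted. With the class as a covariate the log2 difference from Dnmt3a ADD/ADD FGOs was 0.65 (adjusted p = 0.293, over other fits from 0.000461 to 0.293), and without double mutant replicate 4 it was 0.98 (adjusted p = 0.056, edgeR). The single mutants did not pass against wild-type FGOs, with -0.31 for Dnmt3a ADD/ADD (adjusted p = 0.542 from edgeR) and -0.13 where Dnmt3L was mutated (adjusted p = 0.844 from edgeR). Both turned positive against wild-type FGOs of the higher class, at 0.21 and 0.39.

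**Figure D3:**
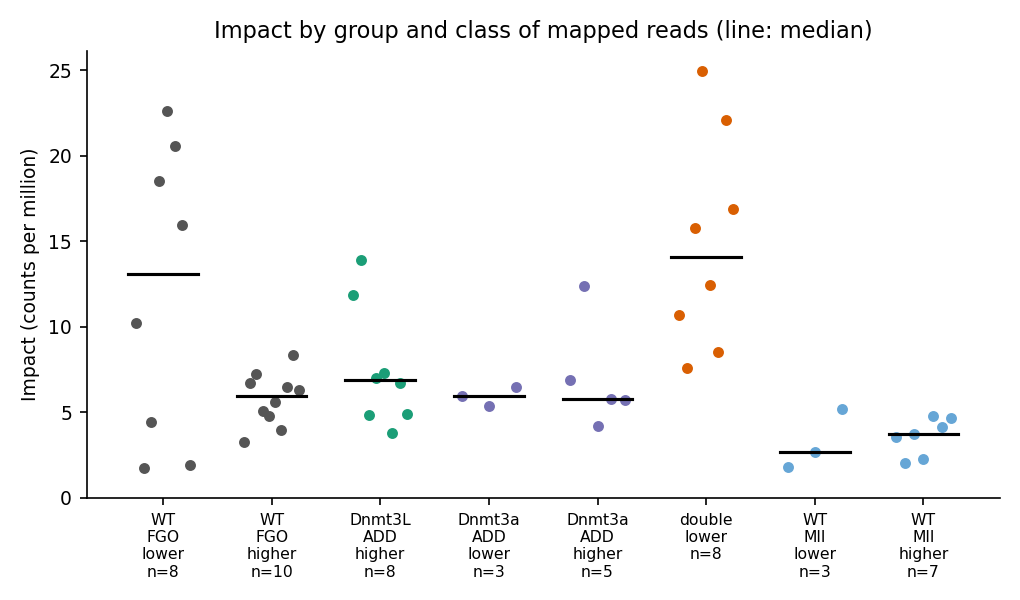
CPM of Impact (vertical axis, linear from 0) in each oocyte library, by group and by the lower or higher class of mapped reads; lines are medians. The double mutant FGOs (median 14.1) lie among the 8 wild-type FGOs of their own class (median 13.1) and mostly above the 10 of the higher class (median 5.96).

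Impact was lower in MII oocytes, from 1.80 over a median of 3.65 to 5.20 CPM, and its range lay within that of the wild-type FGOs. The log2 change was -1.19 (SE 0.30, adjusted p = 0.00138 from edgeR). It was -1.16 with the replicate number as a block (adjusted p = 0.0502, over the alternatives from 0.000158 to 0.0502, edgeR), and all 10 MII oocytes lay below the median of the wild-type FGOs. Of the 6 members tested, Impact and Nap1l5 were called in MII oocytes, where 9.2% of 15784 genes were called. Commd1 joined them when no fold change was required, and 39.1% of genes were called then.

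Zdbf2 was higher in double mutant than in Dnmt3L ADD/ADD FGOs, by the adjusted p alone. Zdbf2 encodes a large zinc finger protein known for a role in growth and feeding after birth, and it spans 41.3 kb of chromosome 1 (63273265 to 63314576, plus strand). In CPM it ran from 0.989 over a median of 3.51 to 6.33 in wild-type FGOs and from 3.64 over 3.99 to 6.19 in double mutant FGOs. It ran from 0.783 over 3.39 to 5.24 with Dnmt3a ADD/ADD and from 1.40 over 2.44 to 3.16 with Dnmt3L ADD/ADD. Every double mutant FGO was above every Dnmt3L ADD/ADD FGO, and every Dnmt3L ADD/ADD FGO was below the median of the wild-type FGOs. How many of all genes part these groups as fully was not counted. Double mutant against Dnmt3L ADD/ADD FGOs gave a log2 difference of 0.79 (SE 0.29, adjusted p = 0.0456 from edgeR), past the adjusted p without the fold change, as were 24.2% of all genes. Over the 24 fits that left out 1 mutant library the adjusted p ran from 0.0313 to 0.0944 (edgeR). It was over 0.05 without Dnmt3L ADD/ADD replicate 1, 2, 3, 4, 5 or 7 and without double mutant replicate 2, 3, 4, 7 or 8. These groups also differ wholly in class. With the class as a covariate, estimated from the other groups, the difference was 1.35 (adjusted p = 0.0399, over the alternatives from 0.0209 to 0.0887, edgeR or DESeq2). Against wild-type FGOs Zdbf2 did not pass in any mutant, with log2 changes of 0.24 (double mutant, SE 0.24, adjusted p = 0.527), -0.11 (Dnmt3a ADD/ADD, SE 0.25, adjusted p = 0.80) and -0.54 (Dnmt3L ADD/ADD, SE 0.26, adjusted p = 0.197, all from edgeR). Gpr1, a receptor gene on the opposite strand, lies 58.7 kb from Zdbf2 as the study annotates it. Gpr1 did not pass the adjusted p in these comparisons of mutant with wild-type FGOs.

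Zrsr1, Commd1 and Inpp5f did not pass the test in any mutant. Zrsr1 encodes a splicing factor related to U2AF1 and is a retrogene copy of X-linked Zrsr2. Its single exon (3282 bases, chromosome 11, 22973215 to 22976496, plus strand) lies inside Commd1, on the opposite strand, and shares 203 exonic bases with it. The oocyte kit does not mark strand, so reads on those bases cannot be assigned to either gene. Zrsr1 had a median of 1.17 CPM in wild-type (0.165 to 2.11), 0.969 in double mutant (0.704 to 3.27), 1.27 in Dnmt3a ADD/ADD (0.613 to 1.70) and 1.33 in Dnmt3L ADD/ADD FGOs (0.255 to 1.85). The groups overlapped, and the log2 changes in the same order were 0.08, 0.03 and 0.03 (SE 0.29 in each, adjusted p of at least 0.875 from edgeR). With 2 to 31 counts per wild-type library, a small change of Zrsr1 was not detectable at this depth.

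Commd1, a regulator of copper export and of NF-kB signalling, was the steadiest member. It spans 86.2 kb of chromosome 11 (22896136 to 22982382, minus strand). Its level was 33.4 ± 2.40 CPM (SD, n = 18) in wild-type, 33.0 ± 1.99 in double mutant, 35.0 ± 1.96 in Dnmt3a ADD/ADD and 33.6 ± 4.26 in Dnmt3L ADD/ADD FGOs (SD, n = 8 each). The log2 changes in the same order were -0.04, 0.10 and 0.03, each with an SE of 0.06, and none passed (adjusted p of at least 0.254 from edgeR). In MII oocytes Commd1 was 37.6 ± 3.03 CPM (SD, n = 10), and 4 of the 10 were above every wild-type FGO. The log2 change was 0.24 (SE 0.05, adjusted p = 0.000462 from edgeR), past the adjusted p and far below the fold change.

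Inpp5f, a phosphatase of phosphoinositides on endosomes, was the member with the highest level. It spans 85.1 kb of chromosome 7 (128611328 to 128696425, plus strand), and the counts do not separate its transcripts. It ran from 48.0 over a median of 71.2 to 138 CPM in wild-type, from 70.7 over 88.1 to 136 in double mutant, from 66.4 over 77.0 to 99.4 in Dnmt3a ADD/ADD and from 58.2 over 72.5 to 88.5 in Dnmt3L ADD/ADD FGOs. Of the double mutant FGOs, 7 of 8 were above the wild-type median. The log2 change in double mutants was 0.24 (SE 0.12, adjusted p = 0.175 from edgeR), and in MII oocytes it was -0.14 (SE 0.11, adjusted p = 0.364 from edgeR). Mcmbp, a replication factor gene that ends 0.016 kb from Inpp5f on the opposite strand, was not called in any comparison of oocytes.

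Calcrl, the receptor that binds adrenomedullin or CGRP together with a RAMP protein, was close to the limit of detection in oocytes. It had 0 to 12 counts per wild-type FGO and was at 0 in 6 of 18. It was at 0 in 4 of 8 double mutant FGOs, in 1 of 8 with Dnmt3a ADD/ADD, in 0 of 8 with Dnmt3L ADD/ADD and in 4 of 10 MII oocytes. A count of 0 allows up to 3 counts. Calcrl missed the filter on low counts (minimum count 10), and the 6 other members made up those tested in oocytes.

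**Figure D4:**
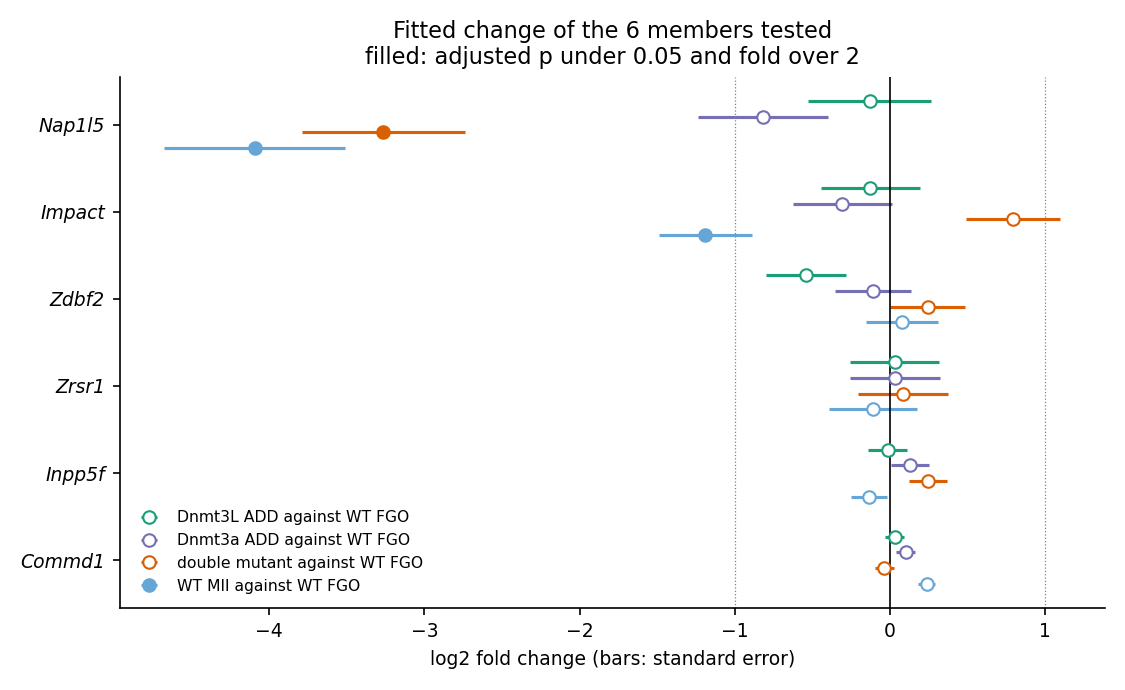
Fitted log2 fold changes (horizontal axis) with standard errors of the 6 members tested, for each mutant and for MII oocytes against wild-type FGOs; filled points passed an adjusted p under 0.05 and a fold change over 2, and dotted lines mark that fold. The filled points are Nap1l5 in double mutants (-3.26) and MII oocytes (-4.09) and Impact in MII oocytes (-1.19).

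Counted together, 0 of 6 members were called in Dnmt3a ADD/ADD FGOs, where 2.05% of all genes were called, and 0 of 6 with Dnmt3L ADD/ADD, where 0.655% were called (edgeR). Without a minimum fold change the members called were still 0 and 0, against 15.7% and 6.13% of all genes. DESeq2 called 0 in both, and at an unadjusted p under 0.05 there was 0 in the former and 1 (Zdbf2) in the latter. The share of all genes at that unadjusted p was not counted. In double mutant FGOs Nap1l5 alone was called with or without the minimum fold, and without it 12.2% of all genes were. Against Dnmt3a ADD/ADD FGOs, 2 of 6 members were called (Nap1l5 lower, Impact higher) beside 5.86% of all genes, and the same 2 without the fold beside 30.9%. Against Dnmt3L ADD/ADD FGOs, 1 of 6 was called (Nap1l5) beside 4.03% of all genes. The median log2 change of the 6 members in double mutants was 0.16 and that of all genes -0.01.

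The design also allows a test of whether both mutations together changed a gene by more or less than the sum of their single effects. Nap1l5 fell by 2.31 on the log2 scale beyond that sum (SE 0.69, adjusted p = 0.00798 from edgeR), and Impact rose by 1.23 beyond it (SE 0.49, adjusted p = 0.0463 from edgeR). With the replicate number as a block the value of Nap1l5 was -1.91 and missed the threshold (adjusted p = 0.0609, over the alternatives from 0.00272 to 0.0609, edgeR or DESeq2). These were 2 of 6 members, while 35.6% of all genes were called in this contrast. The value of Impact was 0.42 with class as a covariate (adjusted p = 0.666, over other fits from 0.00967 to 0.666, edgeR), and it lost the call in 17 of 24 fits that left out 1 library. The 7 libraries without which it passed were Dnmt3L ADD/ADD replicates 1 and 2, Dnmt3a ADD/ADD replicate 4 and double mutant replicates 1, 2, 5 and 6. Zdbf2 missed the threshold at 0.89 (SE 0.38, adjusted p = 0.0643 from edgeR) and passed it without Dnmt3a ADD/ADD replicate 4 or 6 (adjusted p from 0.0329 to 0.105 with 1 library left out, edgeR). It also passed with class as a covariate (1.51, adjusted p = 0.0157, edgeR) and with wild-type FGOs of the higher class (1.09, adjusted p = 0.0209, edgeR), and over the alternatives the adjusted p ran from 0.0157 to 0.215. The remaining members lay between -0.17 and 0.13.

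Partners of the members were followed as a list of 35 genes, of which 31 were tested in oocytes. It holds the GCN pathway for Impact, splicing factors for Zrsr1, the other COMMD proteins for Commd1, NAP1 relatives for Nap1l5, phosphoinositide phosphatases for Inpp5f, RAMP proteins for Calcrl, and further retrogenes with their hosts. With the minimum fold none was called in any mutant against wild-type FGOs (edgeR). By the adjusted p alone 1 was higher (Herc3) and 4 were lower in double mutants, 2 were higher and 1 lower in Dnmt3a ADD/ADD, and 1 was higher with Dnmt3L ADD/ADD (Ramp2, 0.73), while the shares of all genes were 12.2%, 15.7% and 6.13%. Zrsr2, the parent gene of Zrsr1, was among the lower ones with -0.36 (SE 0.12, adjusted p = 0.0457 from edgeR), as was Nap1l4 with -0.23 (SE 0.06, adjusted p = 0.00885 from edgeR). The median log2 change of the list in double mutants was 0.02 and that of all genes -0.01. In MII oocytes 1 partner was called with the fold, Peg13, an imprinted RNA read from within Trappc9, at -4.40 (SE 0.60, adjusted p = 5.58e-08 from edgeR). Without the fold 5 were higher and 6 lower, beside 39.1% of all genes.

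For the members above 10 CPM on average over the 52 oocyte libraries, the genes with the most similar log2 levels were found among 8323 genes. For Inpp5f they were Zfp334 and Add3 (Pearson's r = 0.77 and 0.76), and for Commd1 Max and Rbm22 (r = 0.61 for each). The points share libraries of different groups and depth. The other 5 members were below that level.

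In the embryos, 5 members had at least 10 allelic counts in every embryo, and both alleles of each were read. The mean maternal share was 43.3% ± 1.70 for Impact, 55.3% ± 0.57 for Zdbf2, 46.4% ± 4.57 for Zrsr1, 43.3% ± 5.43 for Inpp5f and 40.1% ± 3.77 for Calcrl (SD, n = 3 each). All 5 shares lay between 40 and 60%, as did 76.9% of 10192 autosomal genes with as many counts. No wild-type embryo was analysed here, so these shares are set beside the rest of the same embryo and not beside a control.

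Impact had 727 maternal and 945 paternal counts in embryo 1, 577 and 707 in embryo 2, and 356 and 501 in embryo 3. These are maternal shares of 43.5% (95% Wilson interval 41.1 to 45.9), 44.9% (42.2 to 47.7) and 41.5% (38.3 to 44.9). The paternal allele was the higher one in 3 of 3 embryos, and the share lay below the median of its chromosome in each. The mean difference from that median was -9.44 ± 1.90 percentage points (SD, n = 3). How many of all genes lay below their chromosome's median in every embryo was not counted. Commd10, a partner gene on the same chromosome, did so as well (mean difference -9.71 percentage points). Intervals cover counting error only.

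Zdbf2 had 907 maternal and 750 paternal counts, 529 and 430, and 500 and 395 in embryos 1 to 3. Its shares were 54.7% (52.3 to 57.1), 55.2% (52 to 58.3) and 55.9% (52.6 to 59.1), the closest together of the members. It was the only one of the 5 with more maternal than paternal counts in every embryo. Beside the chromosome 1 medians of 51.0, 58.2 and 51.2%, Zdbf2 was above in 2 embryos and below in embryo 2.

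Zrsr1 had 40 maternal and 51 paternal counts, 41 and 53, and 61 and 57, or shares of 44.0% (34.2 to 54.2), 43.6% (34.0 to 53.7) and 51.7% (42.8 to 60.5). With 91 to 118 counts per embryo, each interval held 50%. Inpp5f had 158 and 265, 304 and 330, and 176 and 218, or 37.4% (32.9 to 42.1), 47.9% (44.1 to 51.8) and 44.7% (39.8 to 49.6). Calcrl had 87 and 152, 29 and 37, and 10 and 15, or 36.4% (30.6 to 42.7), 43.9% (32.6 to 55.9) and 40% (23.4 to 59.3). Inpp5f and Calcrl were below their chromosome's median in 3 of 3 embryos, with mean differences of -10.3 ± 3.69 and -13.1 ± 1.70 percentage points (SD, n = 3). The share of all genes that were so was not counted. On the chromosome of Calcrl, its neighbour Fam171b was also below in every embryo (mean difference -11.8), while Commd3 was above in all 3 (10.6). Calcrl, a gene of vessels among other tissues, had 31.7, 7.72 and 3.57 CPM of allelic counts in embryos 1, 2 and 3, and the 6 endothelial markers stood at 365, 234 and 131 CPM, with Cdh5 listed at 0 in all 3.

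Nap1l5 and Commd1 had too few allelic counts for a share per embryo. Nap1l5 had 6 maternal and 0 paternal counts in embryo 1, 5 and 0 in embryo 2, and 6 and 1 in embryo 3. Summed over embryos this is 17 of 18, or 94.4% maternal (95% Wilson interval 74.2 to 99.0). Commd1 had 1 and 2, 0 and 2, and 0 and 4, or 1 of 9 maternal (11.1%, 1.99 to 43.5). Both intervals pool the reads of 3 embryos and leave out the spread between embryos. For Nap1l5 the intervals of the single embryos were wider, at 61.0 to 100, 56.55 to 100 and 48.7 to 97.4%. Herc3, the host of Nap1l5, had maternal shares of 52.8, 59.8 and 38.5% on 125 to 582 counts, beside chromosome 6 medians of 51.3, 71.2 and 51.7%. Marker genes of the decidua, a tissue of the recipient female, had summed levels of 11.3, 20.01 and 5.14 CPM over 4 genes. The maternal shares of these sums were 30.6, 80.7 and 69.4%, and the 4 genes differed. Prl8a2 had 3, 53 and 13 counts, all maternal, and Prl3c1 had 0, 3 and 0, all maternal. Htra3 had 1 maternal and 10 paternal counts in embryo 1, 49 and 12 in embryo 2, and 4 and 6 in embryo 3. Cryab had 22 and 49, 33 and 21, and 8 and 5. The part of decidua in the maternal counts of Nap1l5 was not tested.

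**Figure D5:**
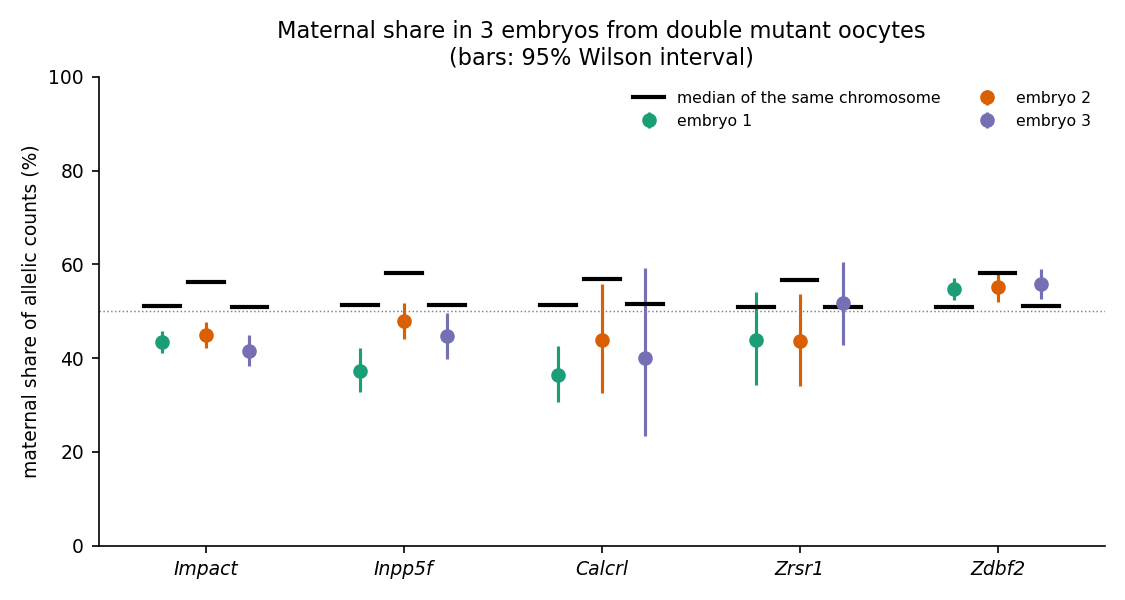
Maternal share of allelic counts in percent (vertical axis, 0 to 100) of the 5 members with at least 10 counts in each of the 3 embryos; points are embryos, bars 95% Wilson intervals, black dashes the median of the gene's chromosome in that embryo and the dotted line 50%. Impact, Inpp5f and Calcrl lie below the dashes in every embryo, and Zdbf2 lies above 50% in every embryo. The share of all genes with either pattern was not counted.

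The alleles were compared in edgeR over 10903 genes with the embryo as a block. Of the 5 members tested, 0 were called at an adjusted p under 0.05, beside 0.569% of all genes, and DESeq2 called 0 as well. At an unadjusted p under 0.05 there were 2, Impact and Zdbf2, and the share of all genes at that p was not counted. The log2 ratio of maternal to paternal counts was -0.39 for Impact (SE 0.11, adjusted p = 0.225 from edgeR), 0.30 for Zdbf2 (SE 0.11, adjusted p = 0.271 from edgeR), -0.20 for Zrsr1 (SE 0.29, adjusted p = 0.726 from edgeR), -0.39 for Inpp5f (SE 0.19, adjusted p = 0.356 from edgeR) and -0.59 for Calcrl (SE 0.29, adjusted p = 0.364 from edgeR). The median over all genes was 0.24. With each allele scaled by its own total (TMM) the median was 0.02 and Zdbf2 stood at 0.09, while Impact stood at -0.61, Inpp5f at -0.61, Zrsr1 at -0.42 and Calcrl at -0.81. Over the 3 fits that left out 1 embryo, the ratio ran from -0.44 to -0.34 for Impact, from 0.29 to 0.32 for Zdbf2, from -0.53 to -0.21 for Inpp5f, from -0.36 to -0.12 for Zrsr1 and from -0.72 to -0.45 for Calcrl, while the genes called in all went from 62 to 381, 22 and 0 without embryos 1, 2 and 3. Peg13, another gene whose paternal copy is known as the active one, had maternal shares of 69.1, 73.4 and 73.0% on 305 to 728 counts.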

How the data were processed

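Single-oocyte libraries were made with the SMART-Seq HT kit and embryo libraries with a directional poly(A) kit. The authors aligned reads to mm10 with STAR and deposited raw counts per gene (featureCounts or HTSeq) for 52 oocytes, and allele-specific counts per gene for 3 embryos. How reads were assigned to alleles, the strand setting and the annotation release are not given in the sources used here. Not used were 8 columns of the allelic files, headed as wild type, since they name no sample of the series given here.

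The main test was the quasi-likelihood test of edgeR 4.0.16 under R 4.3.3, after filterByExpr (minimum count 10) and TMM scaling, with p-values adjusted by Benjamini-Hochberg over all genes tested. The 42 FGO libraries were fitted together with 1 coefficient for each of the 4 genotypes, the MII contrast used all 52 oocyte libraries, and alleles were given equal library sizes with the embryo as a block. A gene was called at an adjusted p under 0.05 and a fold change over 2, without the fold for the non-additive and allelic tests. DESeq2 1.42.0 was an alternative. The tests were also run on simulated counts with large planted changes, and no result here rests on the outcome. The simulated alleles varied less than the real ones, so that run does not show the power for the shares seen here. CPM used the total count of each library and RPKM the exonic length in the deposited tables. Over FGOs the biological coefficient of variation (common value) came to 25.2%, and in the fit of embryo alleles to 33.2%. The closest libraries within a group differed by a chi-square of at least 5.02 per degree of freedom, so none was counted as a repeat.

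The alternatives were RLE size factors, DESeq2, no filter, the replicate number as a block, only those wild-type FGOs that share a class of mapped reads (from the study's read summary), the class as a covariate, no minimum fold change and each mutant library left out. For alleles they were scaled totals, at least 100 allelic counts, no block and each embryo left out. The genes named are the 7 members, their partners (those called and a few more), their nearest expressed or overlapping neighbours, the 2 genes most similar to each member above 10 CPM, and the mutated genes. The members and lists were chosen with earlier results of these data known. Promoter windows and their sequences are from RefSeq (GRCm38.p6). Other genes, repeat elements and DNA methylation were not analysed here. Figures were drawn with matplotlib.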

Additional observations from a re-analysis of the deposited data

Results flagged for a closer look

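In 28 groups of 8 or 10 oocytes, 1 for each member and group, 5 held a library far from the others by Dixon's test. The test is set to flag about 1 in 20 groups by chance when values are normally distributed. CPM near 0, as for Nap1l5, are skewed, so that rate does not hold here and the number of flags shows no excess over chance. Impact was at 12.4 CPM in Dnmt3a ADD/ADD replicate 4, where the next oocyte of the group was at 6.91. Zdbf2 was at 8.03 CPM in MII replicate 10 (next 4.43) and Zrsr1 at 3.27 CPM in double mutant replicate 4 (next 1.74). Nap1l5 was at 0.966 CPM in double mutant replicate 1 (next 0.313) and at 1.04 CPM in MII replicate 6 (next 0.156), and in MII replicate 6 the 13 granulosa genes summed to 25.6 CPM, the highest of the MII oocytes.

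The effect of 1 mutation differed with the presence of the other for Nap1l5 (-2.31 on the log2 scale beyond the sum of single effects) and for Impact (1.23 beyond it), in the edgeR contrast of the 4 genotypes. Neither held throughout. Impact was 0.42 with the class as a covariate, 0.71 with wild-type FGOs of the higher class and 1.22 without the filter, none of them called, and lost the call in 17 of 24 fits with 1 library left out. Nap1l5 lost it with the replicate number as a block (-1.91).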

How the results depend on the processing

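Of 364 alternative values, 328 were labelled as unchanged, as were 969 of 1041 with 1 library or embryo left out. For log2 values the label means the same direction and the same side of the threshold. Counts of members called had it when equal or close, and maternal shares when they moved by less than their SD. The replicate numbers did not pair the FGOs, since 0 of 8 mutant libraries in each group deviated most like the wild-type FGO of the same number (r from -0.479 to 0.398). The fit with the replicate block also left out wild-type replicates 9 to 18, which have no mutant of the same number, so that its wild-type FGOs were those of the lower class, and it tested 15173 genes. In it Nap1l5 was -1.91 in the non-additive contrast (adjusted p = 0.0609, over the alternatives from 0.00272 to 0.0609, edgeR), which left 1 member called (Impact). With wild-type FGOs of the lower class and no block, Nap1l5 was -2.12 and called. In the fit of MII oocytes with the block, also limited to wild-type replicates 1 to 10, Impact was -1.16, which left 1 called (Nap1l5). Under this paired fit Inpp5f in Dnmt3L ADD/ADD turned to 0.024, Zdbf2 in Dnmt3a ADD/ADD to 0.18, Commd1 in double mutants to 0.027 and the non-additive value of Zrsr1 to -0.062. None of these 4 was called under the 7 alternatives.

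With the class as a covariate, Impact fell to 0.65 between double mutant and Dnmt3a ADD/ADD FGOs (1 member called) and its non-additive value to 0.42. Between double mutant and Dnmt3L ADD/ADD FGOs, 2 members were called with the covariate or without a minimum fold (Nap1l5, Zdbf2). The covariate turned uncalled values to -0.0045 for Commd1 and 0.23 for Impact (Dnmt3L ADD/ADD), 0.0084 and 0.013 for Commd1 (double mutant against wild-type, and against Dnmt3L ADD/ADD), and for Zrsr1 -0.015 against Dnmt3a ADD/ADD, -0.063 against Dnmt3L ADD/ADD and -0.10 in the non-additive contrast. With wild-type FGOs of the higher class, 2 members were called in double mutants (Nap1l5, Impact), the non-additive value of Impact was 0.71, and uncalled values turned for Dnmt3L ADD/ADD (Nap1l5 0.024, Commd1 -0.012, Impact 0.39) and Dnmt3a ADD/ADD (Impact 0.21). With those of the lower class Zdbf2 in Dnmt3a ADD/ADD turned to 0.19 and Commd1 in double mutants to 0.026. Without the filter, the non-additive value of Impact was 1.22 and missed the threshold (1 member called).

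With 1 mutant library left out, 1 to 2 members were called between double mutant and either single mutant group, and 1 to 3 in the non-additive contrast. Impact ran from 0.98 to 1.30 between double mutant and Dnmt3a ADD/ADD FGOs and from 1.11 to 1.43 in the non-additive contrast. Values that crossed 0 were, in Dnmt3L ADD/ADD, Nap1l5 (-0.48 to 0.021), Inpp5f (-0.065 to 0.018), Commd1 (-0.015 to 0.056) and Zrsr1 (-0.088 to 0.16), in Dnmt3a ADD/ADD, Zdbf2 (-0.25 to 0.031) and Zrsr1 (-0.062 to 0.12), and Zrsr1 in double mutants against wild-type (-0.23 to 0.17), Dnmt3a ADD/ADD (-0.25 to 0.15), Dnmt3L ADD/ADD (-0.25 to 0.17) and in the non-additive contrast (-0.27 to 0.15). The cause of these changes was not tested. Depth limits Zrsr1, Nap1l5 and Calcrl in oocytes and Nap1l5, Commd1, Zrsr1 and Calcrl in embryos, and 3 embryos limit every allelic comparison.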
